A study of Mus musculus with 8 samples.

Results

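The genes of intracellular lipolysis, which release fatty acids from stored triacylglycerol, were examined in lactating mammary glands with and without Th-POK (Zbtb7b), a zinc finger transcription factor. The set holds 6 genes, Lipa, Pnpla2, Abhd5, G0s2, Lipe and Mgll, of 18749 genes that the array probes could be matched to. They were chosen for their known role, as the lysosomal and cytosolic lipases with their cofactors, but with earlier results of these data known. All 6 were measured, with 11 probes in all, and all 6 entered the test over 14135 genes. In the Th-POK knockout (KO) glands 1 of the 6 genes passed the test, close to the 16.5% of all genes tested that did. It was G0s2, the inhibitor of adipose triglyceride lipase, which was 3.76-fold lower. The transcripts of the lipases themselves did not pass the test in either direction.

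Lipolysis in the cytosol runs as a chain. Adipose triglyceride lipase, the product of Pnpla2, removes the first fatty acid from triacylglycerol at the surface of a lipid droplet, hormone-sensitive lipase (Lipe) acts mainly on the diacylglycerol that is left, and monoacylglycerol lipase (Mgll) takes off the last fatty acid. Acid lipolysis is a separate route, in which lysosomal acid lipase (Lipa) splits triacylglycerol and cholesteryl esters delivered to the lysosome. The mammary gland at the start of lactation holds both kinds of lipid store, since the alveolar epithelium assembles milk lipid droplets for secretion while adipocytes of the surrounding fat pad keep fat of their own.

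Glands came from female C57/Bl6 mice at lactation day 1, as 4 wild-type (WT) and 4 Th-POK KO dams, and each array held the RNA of 1 gland sample labelled with Cy3. The dams were age-matched and fed a standard chow; their age is not given in the sources used here. The KO is of the whole animal, so that T cells and every other cell type of the gland lack Th-POK as well as the epithelium. One-colour Agilent mouse arrays were used, on which the brightness of a probe is the measurement, given below as log2 signal after quantile normalization of the 8 arrays.

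As a check of the labels, the Zbtb7b probe read 9.90, 10.42, 10.13 and 10.23 on the WT arrays and was not well above background on any KO array, at least 81.5-fold lower (limma, adjusted p = 5.70e-09). The share of probes well above background ran from 66.8% to 75.3% over the arrays, and no spot was saturated. The WT arrays all lay on 1 slide and the KO arrays on another, so genotype and slide cannot be told apart in any comparison below. The tissue is a mixture of cells, and a lower signal from fewer cells of a type cannot be told apart from less RNA per cell.

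The upstream sequences of 3 genes are shown because these genes hold the only difference that passed the test and the next smallest p-values in the set. They are the 250 bases before the transcription start in RefSeq's annotation of GRCm38.p6, read 5′ to 3′ on the gene's strand, with CACGTG (the E-box of basic helix-loop-helix factors) in capitals where it occurs. AGGTCA, the half-site of many nuclear receptors, was searched on both strands as well and lies in none of the 3.
G0s2, chr1:193273189-193273438, minus strand: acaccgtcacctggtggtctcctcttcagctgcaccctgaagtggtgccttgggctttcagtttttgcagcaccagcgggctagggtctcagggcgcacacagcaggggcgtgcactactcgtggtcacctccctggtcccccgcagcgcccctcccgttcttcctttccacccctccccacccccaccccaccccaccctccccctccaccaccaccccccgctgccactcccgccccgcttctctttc
Lipe, chr7:25395988-25396237, minus strand: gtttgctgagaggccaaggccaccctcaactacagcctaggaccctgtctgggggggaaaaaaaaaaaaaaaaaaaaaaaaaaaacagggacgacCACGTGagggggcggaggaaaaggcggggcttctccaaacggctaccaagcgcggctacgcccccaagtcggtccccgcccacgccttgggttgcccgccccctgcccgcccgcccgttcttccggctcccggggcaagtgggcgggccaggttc
Mgll, chr6:88724162-88724411, plus strand: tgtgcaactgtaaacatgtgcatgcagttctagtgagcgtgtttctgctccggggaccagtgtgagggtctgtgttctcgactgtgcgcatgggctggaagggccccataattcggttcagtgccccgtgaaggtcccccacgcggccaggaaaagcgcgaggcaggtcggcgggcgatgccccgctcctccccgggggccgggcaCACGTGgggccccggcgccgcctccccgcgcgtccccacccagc

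The G0s2 window holds neither motif and is 67.2% G and C. The Lipe window shown holds CACGTG 155 bases before the start, and the Mgll window shown holds it 44 bases before the start. Lipe and Mgll each have a second window, at another start and not shown, which holds neither motif. RefSeq's table gave 8 windows for the 6 genes, of which 2 held CACGTG, against 6.02% of 32817 windows of the same length over all genes. AGGTCA was found in 1 of the 8, upstream of Abhd5 at 69 bases before the start, against 14% of all windows. These are matches of letters and not measured binding sites.

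Pnpla2 encodes the lipase of the first step, and its level varied more among the arrays of a genotype than between genotypes. Its signal was 15.01, 14.14, 14.50 and 14.61 in WT and 14.97, 15.35, 15.13 and 14.11 in KO. The lowest value of all 8 was that of KO replicate 4, while the other 3 KO arrays lay within the upper part of the WT range or above it, so the genotypes overlapped. The mean was 14.57 ± 0.36 in WT and 14.89 ± 0.54 in KO (SD, n = 4 each), a log2 difference of 0.32 with a 95% interval from -0.32 to 0.97 (limma, adjusted p = 0.441). A second Pnpla2 probe gave 0.28. With single arrays left out the difference ran from 0.17 without KO replicate 2 and 0.18 without WT replicate 2 to 0.58 without KO replicate 4, where the adjusted p was 0.0889.

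Abhd5, also named CGI-58, is the coactivator that Pnpla2 needs for full activity. It read 11.73, 11.97, 12.30 and 12.40 in WT and 11.36, 12.02, 11.81 and 11.60 in KO. The mean was lower in KO, but KO replicate 2 exceeded WT replicates 1 and 2 and the genotypes overlapped. The log2 difference was -0.40 with a 95% interval from -0.84 to 0.03 (limma, adjusted p = 0.165), and the second probe gave -0.36.

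G0s2 is a small protein that binds adipose triglyceride lipase and blocks its activity. Its signal was 14.31, 14.74, 14.48 and 15.07 in the 4 WT glands and 12.04, 12.60, 12.92 and 13.38 in the 4 KO glands. Every KO array lay below every WT array, with a gap of 0.93 between the highest KO and the lowest WT value. The mean fell from 14.65 ± 0.33 to 12.74 ± 0.56 (SD, n = 4 each), a log2 difference of -1.91 (SE 0.28, 95% interval -2.56 to -1.26) or 3.76-fold (limma, adjusted p = 0.00950). Among 14135 genes it ranked 162 by p-value. Of all genes tested 16.5% were called at an adjusted p under 0.05, 8.94% lower and 7.53% higher in KO, so 1 call among 6 genes is close to the share over all genes and is no result about the set.

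With no overlap between genotypes, G0s2 had to be lower in KO for each replicate number. The differences were -2.27, -2.13, -1.57 and -1.68 on the log2 scale for numbers 1 to 4. KO replicate 4, the lowest KO array for Pnpla2, Mgll and Lipa, had the highest G0s2 signal of its genotype, and KO replicate 1 the lowest. The gene was represented by 1 probe on the array, so no second probe stands beside it.

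**Figure D1:**
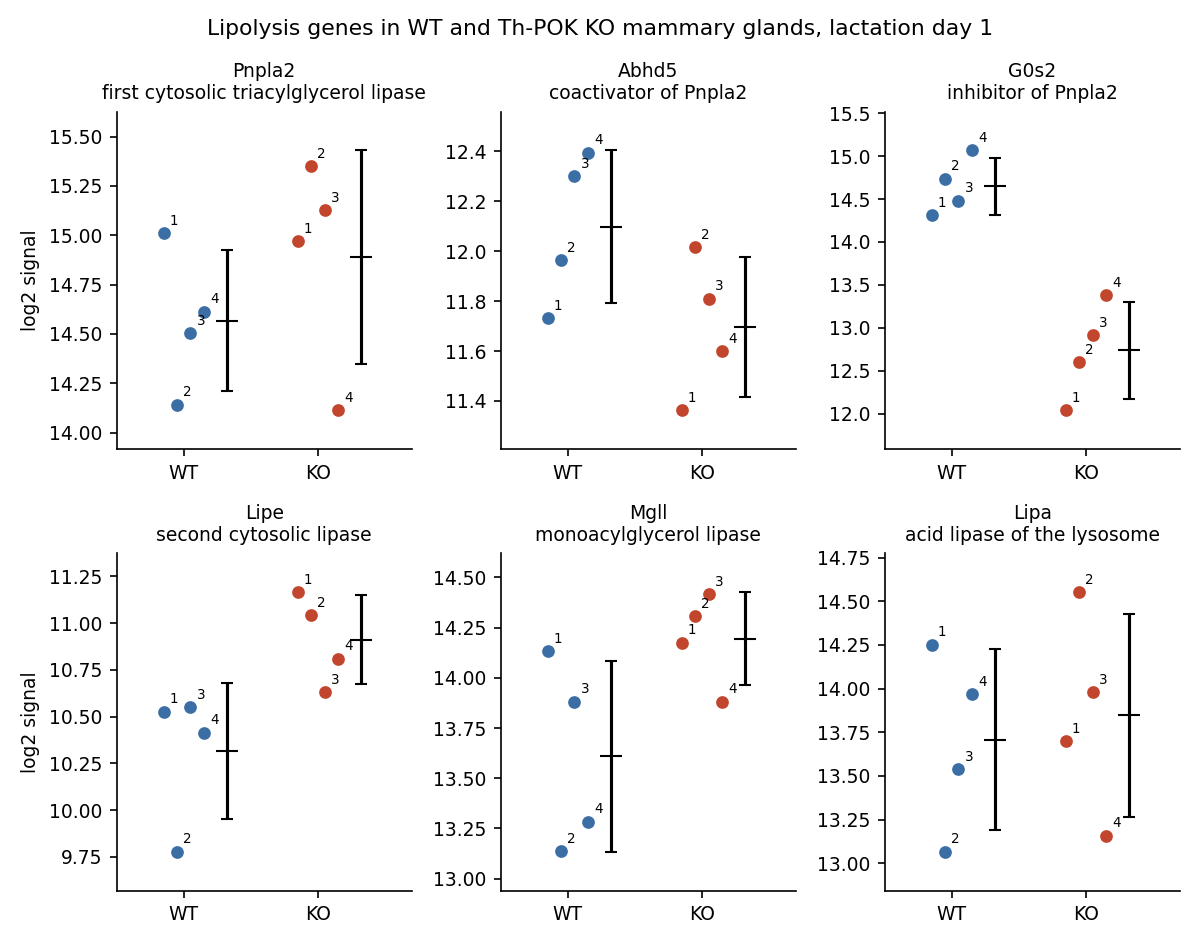
Log2 signal (y axis, quantile-normalized, scale differs by panel) of the 6 lipolysis genes on the 4 WT (blue) and 4 KO (red) arrays, with replicate numbers beside the points and the mean ± SD in black. G0s2 falls from 14.65 to 12.74 with no overlap, Lipe is separated by 0.08, and the other 4 genes overlap between genotypes.

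Because both genes are read on the same array, the difference between Pnpla2 and G0s2 was followed from array to array. The level of that difference depends on the brightness of the probes, and only its change can be read. It was 0.70, -0.59, 0.02 and -0.45 in WT and 2.93, 2.75, 2.21 and 0.73 in KO. The mean went from -0.08 ± 0.58 to 2.15 ± 1.00 (SD, n = 4 each), a shift of 2.23, of which the change in the Pnpla2 mean made up 0.32 and that of G0s2 the rest. KO replicate 4 at 0.73 lay next to WT replicate 1 at 0.70, and the other 3 KO arrays stood well above. The difference between Lipa and Lipe was followed in the same way. Its mean went from 3.39 ± 0.32 in WT to 2.94 ± 0.58 in KO, a shift of -0.45, and the genotypes overlapped.

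Lipe encodes hormone-sensitive lipase. It read 10.53, 9.78, 10.55 and 10.41 in WT and 11.17, 11.04, 10.63 and 10.81 in KO. The genotypes did not overlap, but the gap between the highest WT and the lowest KO array was only 0.08, and 24% of all genes tested had genotypes that did not overlap. The difference was 0.59 (SE 0.20, 95% interval 0.14 to 1.05, 1.51-fold) and did not pass the threshold (limma, adjusted p = 0.0707). The second Lipe probe gave 0.39, with genotypes that overlapped.

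Mgll, the monoacylglycerol lipase, also hydrolyses the endocannabinoid 2-arachidonoylglycerol. Its signal was 14.13, 13.14, 13.88 and 13.28 in WT and 14.18, 14.31, 14.42 and 13.88 in KO. The KO array was above the WT array for each replicate number, while KO replicate 4 lay below WT replicate 1. The difference was 0.59 (SE 0.24, 95% interval 0.05 to 1.12; limma, adjusted p = 0.112). Without WT replicate 1 the difference was 0.76 and passed the threshold (adjusted p = 0.0410), the single change in a call of the 6 genes over 18 alternative settings. A second bright Mgll probe gave 0.60. The probe for the accession NM_001166250 was dim, being well above background on 2 WT and all 4 KO arrays, so its difference is not given. As the mean of the 3 probes, the dim one included, Mgll had a difference of 0.93 and was not called.

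Lipa encodes lysosomal acid lipase, the enzyme of the acid route. It read 14.25, 13.07, 13.54 and 13.97 in WT and 13.70, 14.55, 13.98 and 13.16 in KO. The ranges of the genotypes covered each other almost fully, and the KO array was higher for 2 of the 4 replicate numbers. The mean difference was 0.14 (95% interval -0.62 to 0.91; limma, adjusted p = 0.790), and its sign turned with scaling to the 75th percentile (-0.01) and without WT replicate 2 or KO replicate 2. The interval leaves room for a change of either sign.

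**Figure D2:**
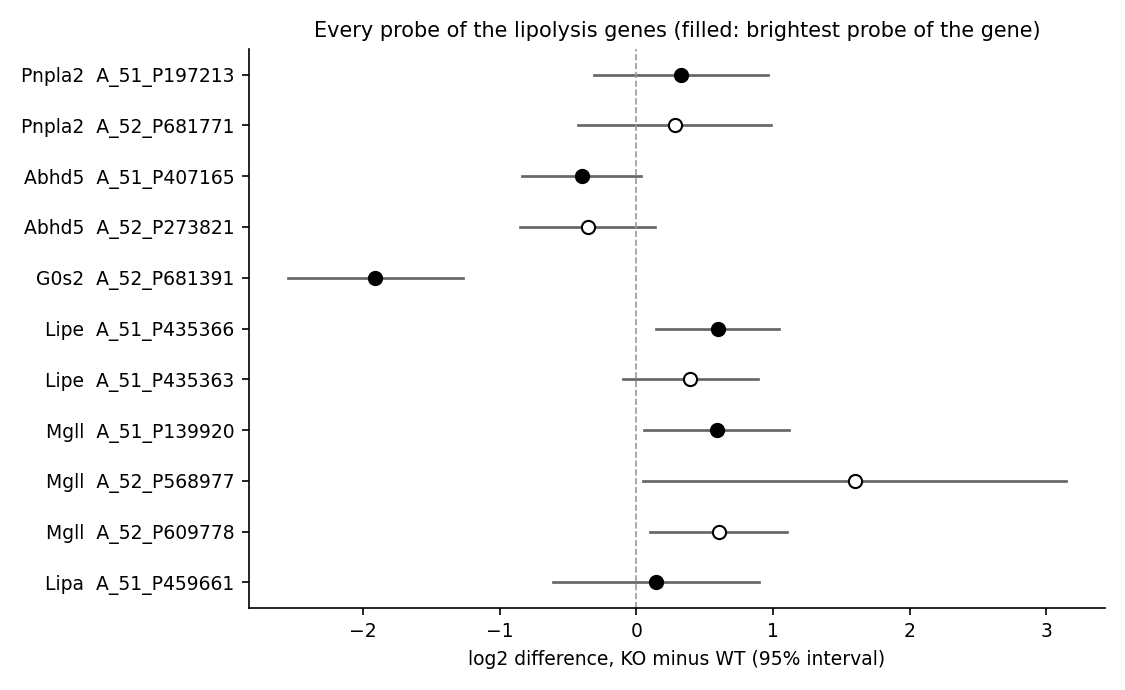
Log2 difference between KO and WT (x axis) with its 95% interval for each of the 11 probes of the 6 genes, from the fit over single probes. Filled points mark the brightest probe of a gene, which stands for the gene in the text. G0s2 at -1.91 has the interval farthest from 0, and the probes of Pnpla2, Abhd5, Lipe and Mgll share a sign within each gene. The Mgll probe with the widest interval was not well above background on 2 WT arrays.

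The lowest array of a genotype was shared by several of the hydrolases. WT replicate 2 had the lowest WT signal for Pnpla2, Lipe, Mgll and Lipa, and KO replicate 4 the lowest KO signal for Pnpla2, Mgll and Lipa. WT replicate 2 was also the lowest WT array for the mean of 11 adipocyte markers (12.32, against 12.76 to 12.94 on the others) and of 9 luminal epithelial markers (13.57, against 13.81 to 14.04). KO replicate 4 was the lowest KO array for neither list, at 12.99 and 14.28, where KO replicate 1 stood at 12.86 and 14.22. Of the 10 marker lists, it was lowest in KO only for macrophages (9.59) and fibroblasts (14.14). For both of these, WT replicate 4 was lowest in WT (9.77 and 13.86). WT replicate 2 was lowest in WT for the neutrophil (6.95) and endothelial (10.01) lists as well. It was highest in WT for the B cell list (6.29). Before normalization, WT replicate 2 and KO replicate 4 had the lowest median log2 signal of their genotype (6.10 and 6.20). The part of cell composition or of array signal in these values was not tested.

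Over the set, 4 of the 6 genes were higher and 2 lower in KO on average, with a median log2 difference of 0.23, against -0.02 over all genes tested. At an unadjusted p under 0.05 stood 3 of the 6, G0s2, Lipe and Mgll, where 36.3% of all genes tested stood.

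The genes whose pattern over the 8 arrays was most like that of G0s2 were Lrtm2 (Pearson r = 0.994), Ciao2a (0.991) and Meox1 (0.988). Within genotypes, after each genotype's mean was taken out, the correlations were 0.965, 0.936 and 0.932. The genes were picked on these same arrays, so these values are no separate evidence of likeness. Their differences were -0.67 for Lrtm2, -0.44 for Ciao2a and -0.71 for Meox1 on the log2 scale, a direction that their choice by likeness to G0s2 fixed. The points are 8 arrays on 2 slides, and the correlation describes these arrays only.

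Around the 6 genes, 103 further genes on 6 lists were followed, of which 87 were tested: droplet coat proteins, other intracellular hydrolases, secreted lipases, hormone control, the lysosome, and the fate of the released glycerol and fatty acids. Of the 87, 11 were called, 6 higher and 5 lower in KO, or 12.6% against 16.5% of all genes. The median difference of the 87 was 0.08. Genotypes did not overlap for 14 of the 87 (16.1%), against 24% of all genes tested.

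The droplet coat holds the proteins that admit lipases to the droplet or keep them out, and 3 of its 10 tested genes were called, 2 higher and 1 lower, with a median of 0.46. Plin5, a perilipin that binds both Pnpla2 and Abhd5, read 8.76, 7.88, 8.68 and 8.87 in WT and 9.75, 10.65, 9.91 and 9.63 in KO. All KO arrays were above all WT arrays, and the rise was 1.43 (SE 0.28; limma, adjusted p = 0.0183) or 2.70-fold. The adjusted p was 0.0530 without KO replicate 3.

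Plin1, the perilipin of adipocytes that holds Abhd5 away from Pnpla2 until the cell is stimulated, rose by 0.71, from 11.17 ± 0.39 to 11.88 ± 0.14 (SD, n = 4 each; limma, adjusted p = 0.0403). Its genotypes did not overlap, but it was called under only 9 of 18 alternatives. Fitm2, which helps droplets form at the endoplasmic reticulum, fell by 0.74 (adjusted p = 0.0346, called under 9 of 18, with a difference of -0.38 after normexp background correction). Plin2, the main perilipin of milk lipid droplets, differed by 0.19 (adjusted p = 0.446), and Cidec, which fuses droplets in adipocytes, by 0.60 (adjusted p = 0.156).

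Hormone control of lipolysis runs through β-adrenergic receptors and cyclic AMP, with insulin acting against it, and 4 of 25 tested genes were called, 2 in each direction, with a median of 0.11. Adrb1, the β1-adrenergic receptor, read 8.34, 9.04, 8.53 and 8.71 in WT and 7.18, 7.06, 6.55 and 6.84 in KO. It was lower on every KO array and fell by 1.75 on the log2 scale or 3.36-fold (limma, adjusted p = 0.00320). A second, dimmer Adrb1 probe gave -0.76, again with no overlap, and the mean of both probes -1.25. The gene was called under all 18 alternatives. Adrb3 was not analysed here, as it had no matched probe.

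Adcy6, an adenylate cyclase that makes cyclic AMP, rose by 0.86 (limma, adjusted p = 0.0202, but 0.0621 without KO replicate 3). Akt1, a kinase of the insulin pathway, fell by 0.73, from 14.93 ± 0.24 to 14.20 ± 0.19 (SD, n = 4 each; adjusted p = 0.0206). Its call was lost without WT replicate 2, KO replicate 1 or KO replicate 3, with an adjusted p of at most 0.0616. A second Akt1 probe gave -0.80, with genotypes that overlapped. Prkg1, the cyclic GMP-dependent kinase, rose by 0.55 (adjusted p = 0.0381, called under 10 of 18). Its second probe gave 0.63, with genotypes that overlapped.

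**Figure D3:**
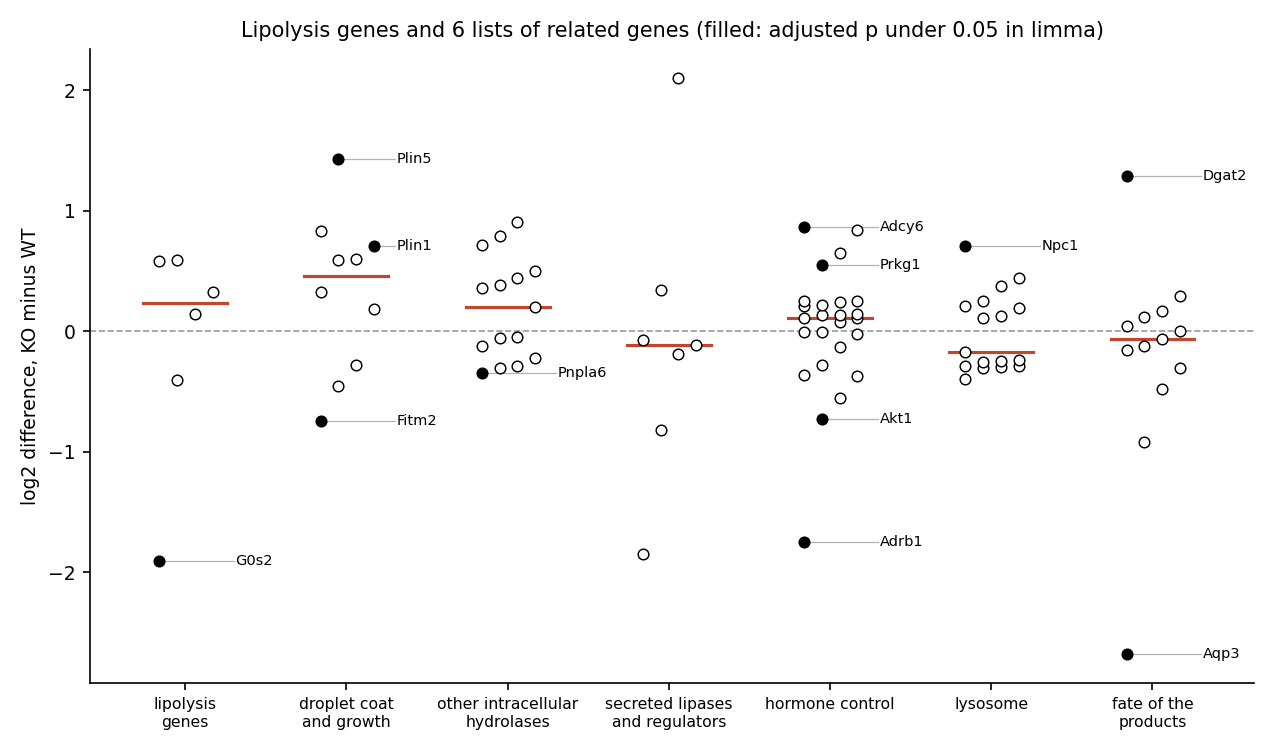
Log2 difference between KO and WT (y axis) for the 6 lipolysis genes and the 87 tested genes of 6 related lists (x axis), 1 point a gene. Filled and named points have an adjusted p under 0.05 in limma, and the red line is the median of each list, from -0.17 for the lysosome to 0.46 for the droplet coat. The lowest point of the secreted lipases is Lipg, which was not well above background on 2 KO arrays.

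Among the genes that handle the released glycerol and fatty acids, 2 of 13 were called, 1 in each direction, with a median of -0.07. Aqp3, a channel for water and glycerol, read 13.31, 12.55, 13.20 and 12.61 in WT and 10.83, 9.90, 9.58 and 10.65 in KO. The genotypes lay far apart. The gene fell by 2.68 on the log2 scale or 6.40-fold (limma, adjusted p = 0.00436) and was called under all 18 alternatives. Dgat2, which puts a fatty acid back on diacylglycerol, rose by 1.29 (adjusted p = 0.0429), but WT replicate 4 at 14.57 lay above KO replicate 1 at 14.38, and the call held under 8 of 18 alternatives. Dgat1, the other enzyme of that step, differed by -0.12 (adjusted p = 0.519). The other Dgat2 probes gave 1.40 and 1.24, both with genotypes that overlapped.

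**Figure D4:**
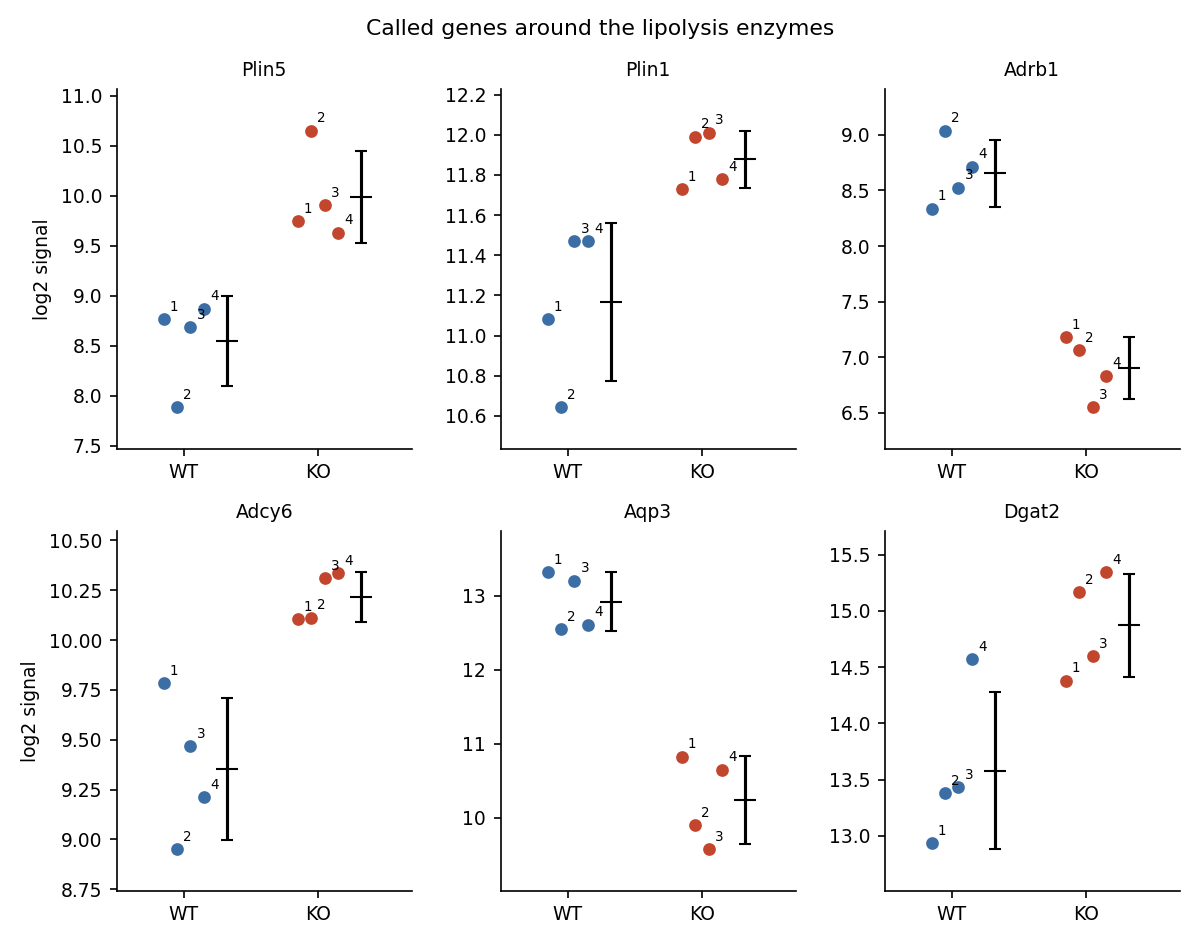
Log2 signal (y axis, scale differs by panel) of 6 called genes around the lipolysis enzymes on the WT (blue) and KO (red) arrays, with replicate numbers and the mean ± SD in black. Adrb1 and Aqp3 are lower and Plin5, Plin1 and Adcy6 higher on every KO array, while the genotypes of Dgat2 overlap.

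On the lysosome list, which shares its compartment with Lipa, 1 of 17 genes was called and the median was -0.17. Npc1, which exports cholesterol from the lysosome, rose by 0.71 (limma, adjusted p = 0.0277, called under 11 of 18 alternatives).

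Of 15 other intracellular hydrolases 1 was called: Pnpla6, a phospholipase of the Pnpla2 family, fell by 0.34 (limma, adjusted p = 0.0361, called under 8 of 18 alternatives, and 0.0566 in the fit blocked by replicate). Its second probe gave -0.23 with genotypes that overlapped. None of 7 secreted lipases and regulators passed the test. Angptl4, an inhibitor of lipoprotein lipase, had a difference of 2.10 with values from 12.74 to 16.66 in WT and from 16.04 to 17.54 in KO (adjusted p = 0.0820). Lipg, endothelial lipase, did not pass (adjusted p = 0.112) and was well above background on 4 WT and only 2 KO arrays, so its difference is not given. Lpl, lipoprotein lipase, differed by -0.11 (adjusted p = 0.857).

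Several cell types of the gland use these genes, so lists of their markers were set beside the result. Of 11 adipocyte markers 2 were called, both higher, Cfd by 0.68 (limma, adjusted p = 0.0268) and Plin1. The mean of the list ran from 12.32 to 12.94 in WT and from 12.86 to 13.14 in KO, so that the genotypes overlapped. The list shares Plin1, Plin4, Cidec, Fabp4 and Aqp7 with the lists above. In KO 9 of the 11 had a higher mean, of which the 2 called passed the test.

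Of 9 luminal epithelial markers 4 were called, all higher, among them Cdh1 by 0.88 and Cldn3 by 1.11 (limma, adjusted p = 0.0143 and 0.0255). The list mean ran from 13.57 to 14.04 in WT and from 14.22 to 14.37 in KO, with no overlap. None of 7 milk protein genes was called, with list means from 16.91 to 17.30 in WT and from 16.76 to 17.36 in KO. None of 11 macrophage markers was called either, and their list means overlapped (9.77 to 10.10 and 9.59 to 10.33).

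All 8 neutrophil markers had a higher mean in KO, and 3 of them were called. Camp and Ngp, both granule proteins, were not well above background on any WT array and were at least 8.54-fold and 7.11-fold higher in KO (limma, adjusted p = 0.000300 and 0.00449). Ltf, which the epithelium also makes, rose by 1.31 (adjusted p = 0.00660). The list mean ran from 6.95 to 7.71 in WT and from 8.85 to 9.89 in KO. The fibroblast list mean was higher in KO as well (13.86 to 14.11 and 14.14 to 14.74), with Dcn called among 6 genes. Among the other lists, 1 of 9 basal epithelial markers (Krt17) and 1 of 5 T cell markers (Cd3e) were called lower, 1 of 4 B cell markers (Cd79b) was called higher, and none of 7 endothelial markers was called. The part of these cells in the values of the lipolysis genes was not tested.

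**Figure D5:**
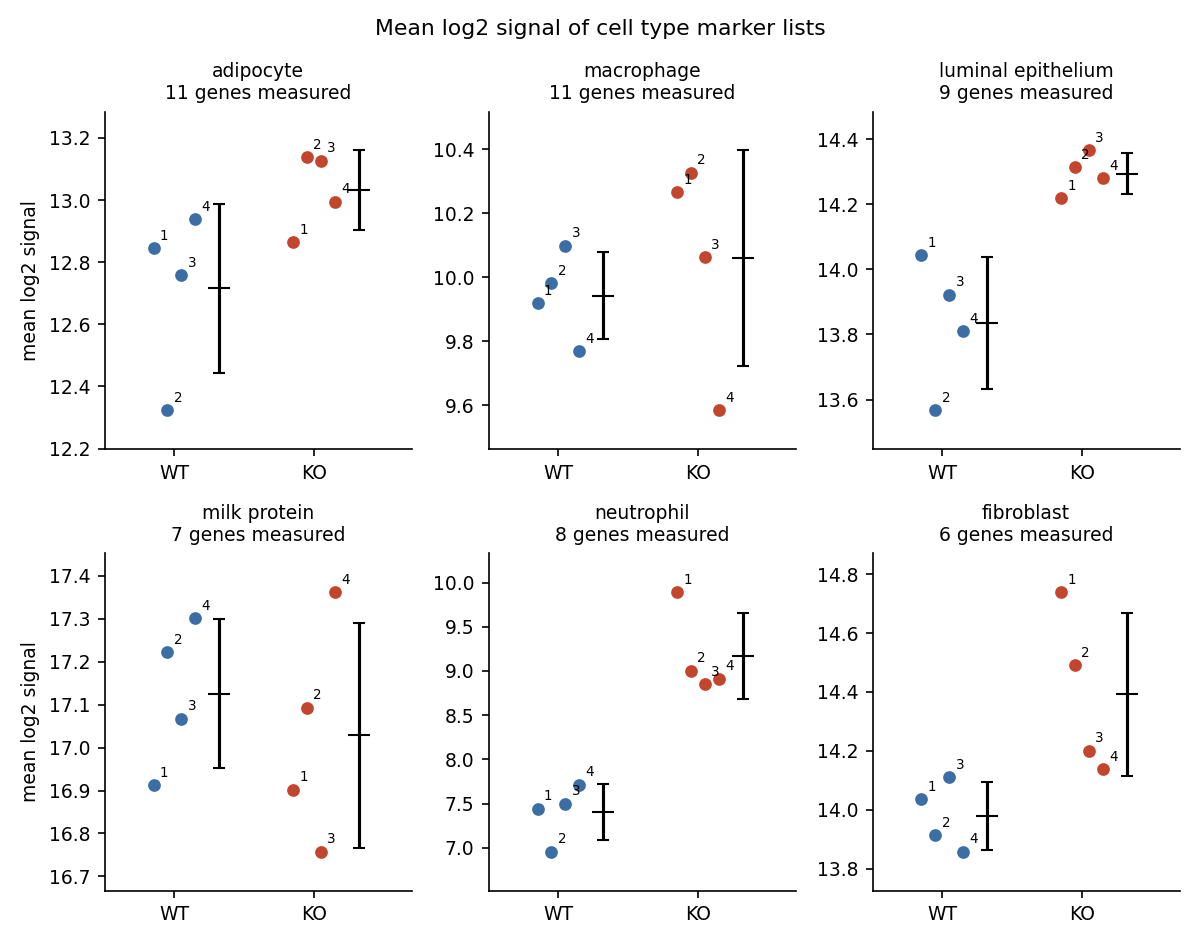
Mean log2 signal (y axis, scale differs by panel) of 6 cell type marker lists on the WT (blue) and KO (red) arrays, with replicate numbers and the mean ± SD in black. The luminal, neutrophil and fibroblast lists do not overlap between genotypes, while the adipocyte, macrophage and milk protein lists do.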

How the data were processed

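RNA of the fourth mammary glands was labelled with Cy3 by the authors and hybridized to 8 one-colour arrays. The deposited scanner files hold the intensity of each spot, which Agilent Feature Extraction 10.7.3.1 had background-subtracted but not normalized between arrays. A further deposited table holds log2 values that the authors quantile-normalized in GeneSpring. It correlated with the scanner values at r of 0.9985 to 0.9999 per array and was used as an alternative. The number of arrays limits the precision.

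The log2 of the processed intensities was quantile-normalized with limma 3.58.1 in R 4.3.3. Control spots and 64 to 100 outlier spots per array were left out, giving 41174 probes. Accessions matched 27479 probes to 18749 symbols through RefSeq's gene table. Probes well above background on all arrays of a genotype entered, and the brightest probe stood for a gene. limma was run on 14135 genes, p-values were adjusted by Benjamini-Hochberg, and genes were called at an adjusted p under 0.05. The main fit had no block. The scripts were tested on simulated data.

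Where a gene was dim on a whole genotype, the fold is a lower limit, set against the higher of its own signal and the lowest signal well above background on each array. The scanner files held median but no mean spot signals, so the normexp alternative (offset 50) used medians.

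The genes named are the 6, called genes of each related list (at most 6) with Plin1, Plin2, Plin5, Cidec and Lipg, called markers (at most 3 per list), Zbtb7b, and the 3 genes most like each called gene of the 6. Angptl4, Lpl and Dgat1 are not covered by it, and were picked with their values in view. Some genes of the related lists are not reported here and were left out of the lists' counts, though not of the test over all genes. Members and lists were chosen with earlier results of these data known. The labels give both genotypes replicate numbers 1 to 4. Deviations from the genotype means correlated between same-numbered arrays at 0.22, 0.16, 0.30 and 0.28. Differences are given by number as a description only, and the number was a block in an alternative fit only. Correlations between differently numbered arrays are not given, so these values do not show that the numbers mark pairs. The methods name independent sets of biological replicates. Alternatives changed the scaling, background, filter, choice of probe, block, variance model or test, or left out an array.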

Additional observations from a re-analysis of the deposited data

Results flagged for a closer look

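In each genotype the highest and lowest of the 4 arrays were set against the others, for 17 genes and 10 marker lists (54 groups of 4), and 1 value stood far from the rest; chance alone sets apart about 1 group in 20. The mean of the neutrophil markers was 9.89 on KO array 1, where the other KO arrays lay between 8.85 and 9.01. G0s2 was lowest on that same array, at 12.04. None of the 6 lipolysis genes had an array that stood apart in this way.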

How the results depend on the processing

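The G0s2 decrease kept its direction and its call under all 18 alternatives, from -2.13 to -1.68 on the log2 scale with adjusted p from 0.00633 to 0.0323. Pnpla2, Abhd5 and Lipe kept their direction and stayed uncalled under all 18. Pnpla2 ranged from 0.17 to 0.58 with single arrays left out and was 0.20 with 75th percentile scaling. Lipa turned sign under scaling to the 75th percentile (-0.0107) and ranged from -0.0939 to 0.37 with single arrays left out, at -0.07 without WT replicate 2 and -0.0939 without KO replicate 2. Mgll was 0.93 as the mean of its probes, ranged from 0.43 to 0.76 with single arrays left out and was called without WT replicate 1, so that 1 to 2 of the 6 genes were called. With the replicate number as a block, G0s2 had an adjusted p of 0.00633 and no call among the 6 changed. The count of called genes, 2329 of 14135, was 4001 over single probes, 2764 with the block and 1389 by the methods' t-test after Benjamini-Hochberg adjustment (4764 at an unadjusted p under 0.05). It ran from 516 to 3075 with single arrays left out, lowest without KO replicate 3, and was 762 without WT replicate 2, 984 without WT replicate 3, 751 without KO replicate 1 and 953 without KO replicate 2. The 11 called genes of the related lists became 7 with no filter on dim probes, 6 by the methods' t-test, and 2 to 15 with single arrays left out. The cause of these moves was not tested.

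The limits are those of 4 dams a genotype, with each genotype on a slide of its own. Quantile normalization sets all arrays to 1 distribution. G0s2 and Lipa rest on 1 probe each.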
